A study of Argopecten irradians concentricus with 9 samples.

Results

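Early growth response protein 1 (EGR-1) is a zinc finger transcription factor, and the gene described here is the gene model evm.TU.Contig279.25, the 1 gene model of 28864 in the deposited table whose best Swiss-Prot match carries that name. It was chosen by its FPKM in these same 9 libraries, which had been seen to follow water temperature, so its own levels are given as a description, with no test. The samples were adductor muscle, which pulls the shell valves together, of bay scallops (Argopecten irradians concentricus) labelled 1 year old. Water was at room, high or low temperature, with 3 RNA sequencing libraries per group and 9 in all. Room temperature was the control, and the labels name no other agent, genotype or treatment, no temperature in degrees and no exposure time. RNA was extracted per tank, and whether replicate libraries stand for separate tanks or animals is not in the labels, so every p-value covers the spread among these 9 libraries, which may be technical.

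In vertebrates, EGR-1 is an immediate-early gene: its transcription starts within minutes of a stimulus without new protein synthesis, mostly through MAP kinases that act on ETS-family factors and serum response factor bound at its promoter, and its messenger RNA decays quickly. The protein binds GC-rich sites with its zinc fingers, and the NAB co-repressors bind EGR-1 and hold back its activity. Dual specificity phosphatases and Sprouty proteins are induced by the same kinases and switch them off again. In mammalian skeletal muscle EGR-1 is induced by contraction and by injury. These roles are known from vertebrates and are background here.

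The EGR-1 gene model lies on the minus strand of Contig279 from base 851878 to 856576, in the contig coordinates of the deposited table, whose genome build is not given in the sources used here. It spans 4699 bases, of which 3513 count as gene length. No gene model of the table overlaps it. The table assigns it no Pfam domain and no transcription factor family, so its identity rests on the protein match alone. The 2 nearest gene models upstream and the 2 nearest downstream hardly gave reads: evm.TU.Contig279.26, whose start is 4259 bases away, and evm.TU.Contig279.28 had 0 reads in all 9 libraries, a laminin G domain model (evm.TU.Contig279.24) had 66 and a match to the gamma subunit of the amiloride-sensitive sodium channel (evm.TU.Contig279.23) had 18. Of the 33 gene models on the contig, 10 were abundant enough to be tested.

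Values are FPKM, fragments scaled to gene length and to sequencing depth, which can be compared between genes. Each library had 11716140 to 16229040 assigned reads. Muscle genes dominated every library: the mean over the 9 libraries was 43754 FPKM for myosin regulatory light chain A, 24433 for adductor muscle actin and 16902 for myosin essential light chain. On the leading principal component of the log2 values, high temperature replicate 3 lay at 52.0 and the other 8 libraries between -28.5 and 13.8, and on the next, low temperature replicate 3 lay at 42.9 and the others between -21.1 and 12.8. Results that rest on these 2 libraries are also given without them.

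EGR-1 was lowest in every low temperature library and highest in every high temperature library. At low temperature it was at 0.290 FPKM in replicate 1, 0.590 in replicate 2 and 0.970 in replicate 3. At room temperature it was at 2.84, 3.96 and 5.61 FPKM in replicates 1, 2 and 3. At high temperature it was at 8.19, 10.01 and 7.10 FPKM. No 2 groups overlapped: the highest low temperature library lay below the lowest room temperature library by a factor of 2.93, and the highest room temperature library lay below the lowest high temperature library by a factor of 1.26. In whole tissue, fewer cells that express a gene and less of its RNA per cell cannot be told apart.

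**Figure D1:**
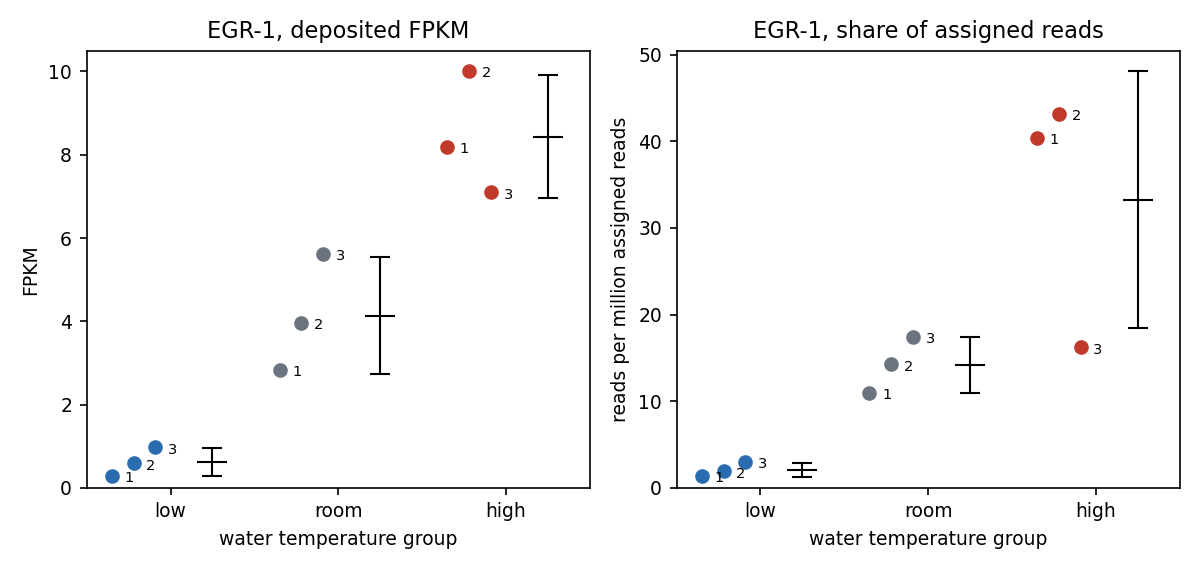
EGR-1 in each library as deposited FPKM (left) and as RPM, reads scaled to assigned reads (right), by water temperature group. Points are libraries numbered by replicate, and bars are the mean ± SD of 3 libraries. In FPKM the groups do not overlap, while as a share of assigned reads the replicate 3 point of high temperature (16.2) falls among the room temperature libraries (10.98 to 17.4).

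The group means were 0.617 ± 0.340 FPKM at low, 4.14 ± 1.40 at room temperature and 8.43 ± 1.47 at high temperature (SD, n = 3 each). Room exceeded low temperature 6.71-fold and high exceeded room temperature 2.04-fold in these means. On the log2(FPKM + 1) scale, where the added 1 compresses low values, the difference was -1.65 for low minus room, 0.90 for high minus room and 2.55 for high minus low (SE 0.27 each). Among the 8624 gene models with a mean of at least 1 FPKM, that was the 48th lowest, the 295th highest and the 9th highest difference. On the log2 scale the step between low and room temperature was thus larger than that between room and high, and the ratio of means between high and low temperature was 13.7. With replicate 3 left out of both, the high and low temperature means were 9.10 and 0.440 FPKM.

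The FPKM rested on few reads at low temperature. EGR-1 had 19, 28 and 37 reads in the low temperature libraries (95% Poisson intervals 11.4 to 29.7, 18.6 to 40.5 and 26.1 to 51.0), which cover counting error only. It had 167, 206 and 283 reads at room temperature and 571, 506 and 226 at high temperature. The deposited FPKM carry a scaling between libraries that departs from the assigned reads most in high temperature replicate 3. As a share of assigned reads, EGR-1 was at 40.4, 43.2 and 16.2 RPM (reads scaled to the assigned reads of the library) in the high temperature libraries and at 10.98, 14.3 and 17.4 in the room temperature libraries. On that scale high temperature replicate 3 lay within the room temperature range, so the separation of high from room temperature depends on how that library is scaled. The low temperature libraries, at 1.41, 1.90 and 2.96 RPM, stayed below all others on both scales.

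A fit of all gene models with limma, an empirical Bayes linear model, called genes at a Benjamini-Hochberg adjusted p under 0.05. It called 0.162% of the tested gene models between high and low temperature, 0.151% between low and room and 0% between high and room. Taking high against low temperature, 0.151% of tested gene models were called higher and 0.0116% lower, and 0.151% were called lower and 0% higher at low than at room. Groups without overlap, as in EGR-1, were found in 17.2% of tested gene models for high against low, 15.3% for low against room and 16.5% for high against room. A full order, with every low library below every room library and every room library below every high library, was held by 19 tested gene models, EGR-1 among them, or 0.22% of 8624. The opposite full order was held by 26, or 0.301%. These orders are of deposited FPKM and were not counted on shares of assigned reads. The FPKM of high temperature replicate 3 correspond to a depth of 9062875 reads, where 13932572 were assigned. A separation of high from room temperature may therefore depend on how that library is scaled, as it does for EGR-1.

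The gene models that varied most like EGR-1 were found by Pearson's correlation of log2(FPKM + 1) over the 9 libraries, which share their depth and scaling, and no p is given because the level of EGR-1 defined the search. Of 8623 other gene models, 23 reached r of at least 0.9, 14 reached -0.9 or below, and the median r was 0.02. The 12 highest ran from 0.919 to 0.964, and the next was at 0.919 as well, so the end of this list is not a boundary. Spearman's rho of the 12 ran from 0.767 to 0.95, and r was 0.816 to 0.942 without low temperature replicates 1 and 2, the libraries farthest from the median of EGR-1. With replicate 3 of high and of low temperature left out, r was 0.904 to 0.985.

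Closest was a match to core-binding factor subunit beta (evm.TU.Contig225.132, r = 0.96), the partner that strengthens DNA binding by Runt-domain factors. It was at 2.28, 2.97 and 2.59 FPKM at low, 5.37, 7.50 and 7.36 at room and 9.55, 13.7 and 6.84 at high temperature. Its low temperature libraries lay apart from the others, and high temperature replicate 3 fell among the room temperature libraries. Solute carrier family 35 member B1 (evm.TU.Contig1212.10, r = 0.96), a nucleotide sugar transporter relative of the endoplasmic reticulum, followed the same order within a narrow range, from 0.60 ± 0.02 FPKM at low to 1.13 ± 0.06 at room temperature and 1.29 ± 0.09 at the high one (SD, n = 3).

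Among the 12 there were 3 gene models with an Hsp70 or DnaJ domain, or 25%, where 52 of the 8624 tested, or 0.603%, have one; the domain was picked after the 12 names were seen. DnaJ homolog subfamily B member 4 (evm.TU.Contig80.202, r = 0.96), a co-chaperone that delivers unfolded proteins to HSP70, was at 9.11, 12.05 and 10.2 FPKM at low, 40.7, 30.5 and 32.9 at room and 55.3, 65.5 and 55.7 at high temperature, with no overlap between groups. Another was the HSP70 chaperone with the best match to mosquito HSP70B2 (evm.TU.Contig80.193, r = 0.95). It was at 0.22, 0.70 and 0.66 FPKM at low (46 reads in all), 3.09, 4.44 and 3.55 at room and 5.34, 12.2 and 3.68 at high temperature. Both lie on Contig80, with 200907 bases between them. The third was the 78 kDa glucose-regulated protein (evm.TU.Contig141.23, r = 0.92), the HSP70 of the endoplasmic reticulum, which ranged from 12.4 to 17.6 FPKM at low, from 31.0 to 35.2 at room and from 33.4 to 90.2 at high temperature.

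Dual specificity protein phosphatase 4 (DUSP4, evm.TU.Contig640.21, r = 0.92), a nuclear phosphatase that inactivates MAP kinases, is in the feedback list described further on. It was at 0.61, 0.50 and 0.54 FPKM at low, 0.91, 1.14 and 2.35 at room and 3.97, 5.77 and 2.64 at high temperature. The groups did not overlap, and the order of the 6 room and high temperature libraries was the order of EGR-1 in them (r = 0.977 over these 6). Of the others, sequestosome-1 (evm.TU.Contig626.26, r = 0.96), an autophagy receptor, was 3.06-fold higher at high than at low temperature in the means. For hematopoietic prostaglandin D synthase (r = 0.94), of the glutathione S-transferase family, it was 4.89-fold, with only 19 reads over the low temperature libraries. Neuropeptide FF receptor 2 (r = 0.93), a G protein-coupled receptor, was 3.66-fold higher, GTP-binding protein 128up (r = 0.93) 1.73-fold, a cofilin match (evm.TU.Contig405.4, r = 0.93), which severs actin filaments, 1.58-fold, and evm.TU.Contig1620.11 (r = 0.92), which has no protein match, 1.98-fold. Over the 6 room and high temperature libraries alone, r of the 12 ran from 0.402 to 0.977, and it was lowest for neuropeptide FF receptor 2 (0.40), cofilin (0.44), evm.TU.Contig1620.11 (0.52) and hematopoietic prostaglandin D synthase (0.55). Pearson's r does not measure size, and the 12 differed in it. Their log2 differences between high and low temperature ran from 0.51 to 2.39 (median 1.53), where EGR-1 had 2.55. The HSP70B2 match came close to EGR-1 in the ratio of high to low temperature means, at 13.4 against 13.7. Besides EGR-1, 4 of the 12 held the full order of low below room below high in deposited FPKM: solute carrier family 35 member B1, DnaJ homolog subfamily B member 4, sequestosome-1 and DUSP4. In these 4, as in EGR-1, the separation of high from room temperature depends on how high temperature replicate 3 is scaled.

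**Figure D2:**
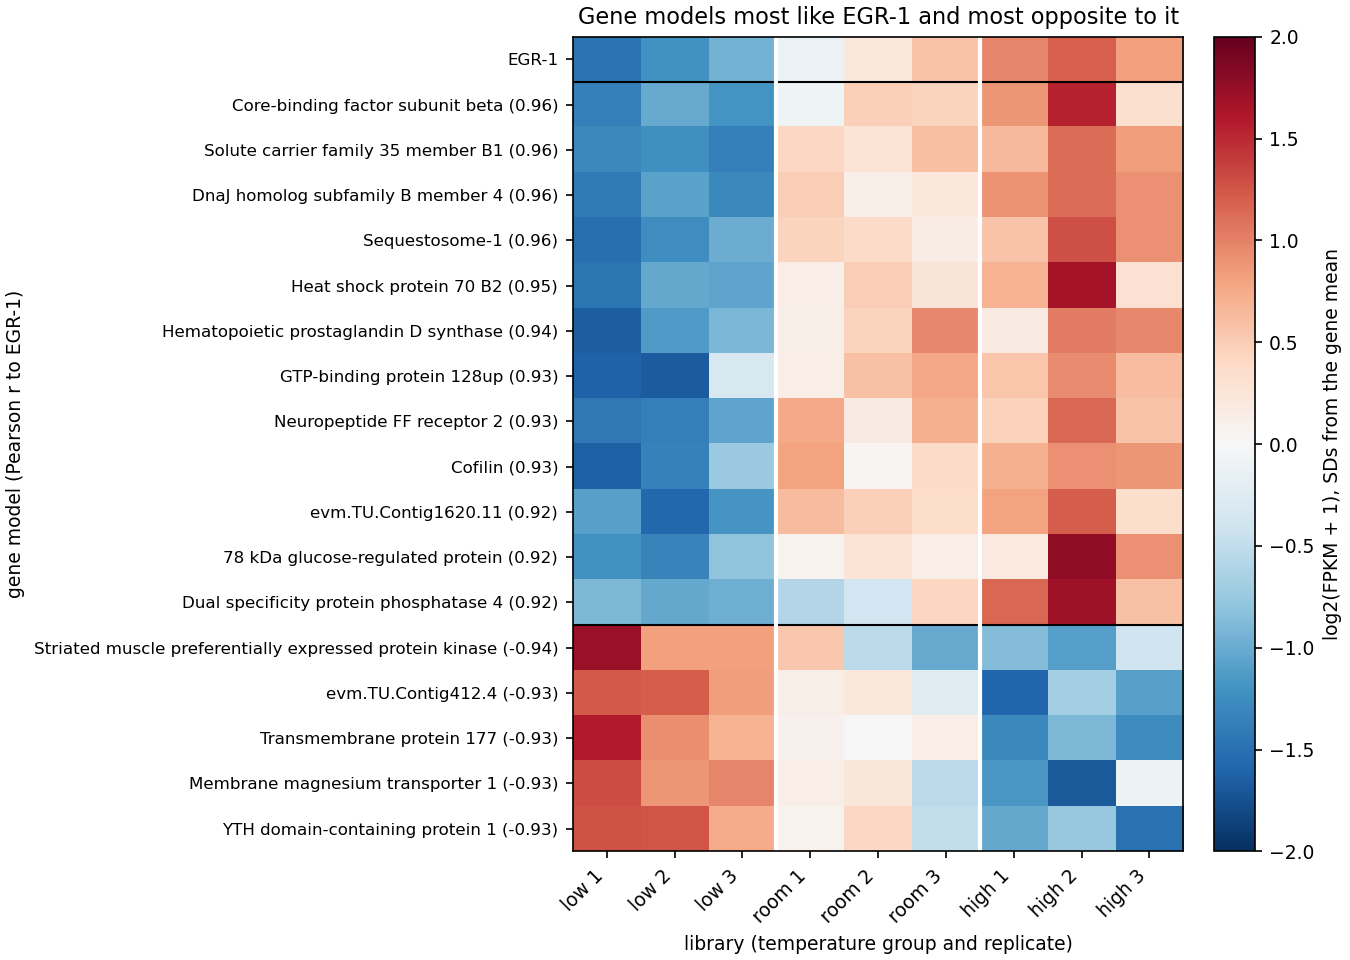
EGR-1, the 12 gene models of highest and the 5 of lowest Pearson correlation with it (rows, r in parentheses) in the 9 libraries (columns). Colour is log2(FPKM + 1) in SDs from the mean of the gene model over the 9 libraries, so sizes of change cannot be compared between rows. In the rows of highest correlation the low temperature columns are blue and high temperature replicate 2 is the darkest red in most, among them EGR-1 at 10.01 FPKM.

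In the opposite direction, the lowest r belonged to the striated muscle preferentially expressed protein kinase (evm.TU.Contig460.14, r = -0.94), a giant kinase of the muscle sarcomere. It was at 24.0, 20.4 and 20.4 FPKM at low, 19.4, 15.9 and 14.6 at room and 14.99, 14.3 and 16.3 at high temperature, so room and high temperature overlapped. YTH domain-containing protein 1 (r = -0.93), a nuclear reader of methylated adenosine in RNA, was 2.61-fold higher at low than at high temperature, transmembrane protein 177 (r = -0.93) 3.32-fold, membrane magnesium transporter 1 (r = -0.93) 1.59-fold and evm.TU.Contig412.4 (r = -0.93), which has no protein match, 1.86-fold. YTH domain-containing protein 1, transmembrane protein 177 and evm.TU.Contig412.4 held the opposite full order.

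EGR-1 also varied within groups, by a factor of 3.34 between the lowest and the highest library at low, 1.98 at room and 1.41 at high temperature. The genes that shared these deviations from the group means were different ones: 0 of the 12 gene models of highest correlation were among the 12 of highest correlation in the deviations, where the first set had r from -0.05 to 0.78. The 5 highest in the deviations (r = 0.948 to 0.964) were cytoplasmic hydroxymethylglutaryl-CoA synthase, an enzyme of sterol synthesis, the store-operated calcium entry regulator STIMATE and 3 gene models with no protein match. Hydroxymethylglutaryl-CoA synthase (evm.TU.Contig421.19) was at 1.48, 1.67 and 2.44 FPKM at low, 0.79, 1.22 and 1.94 at room and 1.60, 1.78 and 0.998 at high temperature, with all 3 groups overlapping.

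The signalling proteins that act on EGR-1 in vertebrates were examined as lists drawn from words in the protein names, with EGR-1 left out of each count. Upstream, 26 gene models of the MAP kinase cascade list were tested, of 45 matched, the others being under 1 FPKM. None was called by limma in any comparison, none by voom on the recovered reads and none at an unadjusted p under 0.05. The values are RNA levels, and kinase activity was not measured. The list holds loose name matches, such as NF-kappa-B inhibitor-interacting Ras-like protein 1. Over all tested gene models the unadjusted share was 11.9% for high against low (6.42% higher and 5.45% lower), 8.16% for low against room (3.35% higher and 4.81% lower) and 9.57% for high against room (4.7% higher and 4.87% lower). The median log2 difference between high and low temperature was 0.0028 in this list and 0.0095 over all tested gene models. The lowest p values between high and low temperature belonged to MAP kinase kinase 3 (0.61, limma adjusted p = 0.432) and to Son of sevenless homolog 2, which loads Ras with GTP (-0.58, limma adjusted p = 0.499). Against room temperature they were the stress kinase JNK (0.50, limma adjusted p = 0.643) and MAP kinase kinase kinase 8 (0.38, limma adjusted p = 0.752) at low temperature. At high temperature they were MAP kinase kinase kinase kinase 3 (0.34, limma adjusted p = 0.681) and MAP kinase kinase 4 (0.33, limma adjusted p = 0.699).

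Of 12 tested SRF, ETS and CREB factors, which bind the EGR-1 promoter in vertebrates or assist there, 0 were called by limma and 0 by voom in any comparison. At an unadjusted p under 0.05 there were 2 between high and low temperature, 1 between low and room and 0 between high and room. The shares of all tested gene models were 11.9%, 8.16% and 9.57%. The ETS factor Elk-3 (evm.TU.Contig479.58) was at 7.42, 11.2 and 6.61 FPKM at low, 25.8, 20.3 and 15.9 at room and 19.3, 16.8 and 21.4 at high temperature. Its low temperature libraries lay below all others, and room and high temperature overlapped (low minus room -1.21, SE 0.27, limma adjusted p = 0.196). MKL/myocardin-like protein 2, a co-activator of serum response factor, had a log2 difference of 0.60 between high and low temperature (limma adjusted p = 0.384). The ETS factor ETV6, a repressor, had -0.60 between low and room temperature (limma adjusted p = 0.663). Between high and room temperature the lowest p belonged to D-ETS-4 (-0.53, limma adjusted p = 0.548) and to cyclic AMP-responsive element-binding protein 1 (-0.49, limma adjusted p = 0.663). Serum response factor and Elk-1 themselves were under the minimum, with mean levels of 0.560 and 0.678 FPKM.

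The co-repressor of EGR-1 was present as 1 gene model, the NGFI-A-binding protein homolog (evm.TU.Contig231.59, Contig231 from 2422460 to 2474013, minus strand). It was at 2.02, 1.52 and 1.69 FPKM at low, 3.55, 1.78 and 2.96 at room and 3.20, 2.64 and 4.23 at high temperature. Low and high temperature libraries did not overlap, and room temperature overlapped both. It was not called in any comparison (high minus low 0.66, SE 0.26, limma adjusted p = 0.344; unadjusted p = 0.0273), and the adjusted p over the alternative settings ran from 0.169 to 0.776. Its range between groups was small beside that of EGR-1: 1.74 ± 0.252 FPKM at low and 3.36 ± 0.807 at high temperature.

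Members of the early-response transcription factor list were more abundant than EGR-1 in most cases. The list was drawn from protein names, which do not show that each member is an early-response gene in scallops. It matched 11 gene models, of which 9 were abundant enough to be tested. Transcription factor AP-1 was under the minimum, with 3 reads over the 9 libraries (mean 0.0049 FPKM). Of 9 tested, 1 was called higher at high than at low temperature and 5 had an unadjusted p under 0.05, all higher at high temperature, with a median log2 difference of 0.62 against 0.0095 over all tested gene models. Of all tested gene models, 0.151% were called higher and 6.42% were higher at that unadjusted p. Against room temperature, 1 was called lower at low temperature, where 3 had an unadjusted p under 0.05, all lower (0.151% and 4.81% of all tested gene models). At high temperature 0 were called by limma or voom, and 1 had an unadjusted p under 0.05 (9.57% of all tested gene models). The called gene was C/EBP gamma (evm.TU.Contig225.61), a bZIP factor that pairs with other C/EBP proteins, and it was known to be called when the list was drawn up. It fell at low temperature, with 4.14, 5.71 and 4.56 FPKM at low against 30.8, 27.7 and 24.8 at room (log2 difference -2.31, SE 0.25, limma adjusted p = 0.00902), and high temperature lay at 26.2, 21.8 and 34.96 FPKM, above low (2.29, SE 0.25, limma adjusted p = 0.0048). That call was lost with replicate 3 of high and of low temperature left out (2.09, adjusted p = 0.0544). The call against room temperature was lost under 3 of 19 alternatives, without low temperature replicate 1 (adjusted p = 0.0723), without replicate 3 (0.0748) and without a filter on low values (0.0534), with a range of 0.00227 to 0.0748 over the alternatives. Its high temperature libraries lay on both sides of the room temperature ones (high minus room -0.02), unlike those of EGR-1.

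The Krueppel-like factors, zinc finger proteins that bind GC-rich sites like those of EGR-1, were taken into 2 of the lists. Among the tested ones, only the Krueppel-like factor 12 model was assigned a zinc finger domain. The models named Krueppel-like factor 4, 5 and 6 were assigned no Pfam domain, so these names rest on the protein match alone. Krueppel-like factor 5 (evm.TU.Contig329.80) was at 164, 180 and 184 FPKM at low, 321, 303 and 238 at room and 264, 251 and 299 at high temperature, which did not pass the test (low minus room -0.69, limma adjusted p = 0.486). Krueppel-like factor 12 had the same form, at 2.82 ± 1.40 FPKM at low, 7.05 ± 1.08 at room and 6.90 ± 1.35 at high temperature (low minus room -1.13, limma adjusted p = 0.263). MafK, a small bZIP factor, stood instead at 17.8 to 22.7 FPKM at high temperature, above 10.8 to 13.9 at room and 9.39 to 12.98 at low (high minus room 0.73, limma adjusted p = 0.371). The Myc proto-oncogene protein, a growth regulator, had 0.37 (limma adjusted p = 0.724) between high and room temperature. Krueppel-like factor 6, at 0.32 to 0.91 FPKM at low, 0.96 to 1.11 at room and 1.15 to 1.71 at high temperature, held the full order of EGR-1 in deposited FPKM and did not pass (high minus low 0.56, limma adjusted p = 0.39). Of 5 tested Sp and Krueppel-like zinc fingers, 0 were called by limma or voom in any comparison, and 3 had an unadjusted p under 0.05 between high and low temperature, 2 between low and room and 0 between high and room. Of all tested gene models, 11.9%, 8.16% and 9.57% did. The median log2 difference between high and low temperature was 0.56. In that list, Sp5 had the lowest p between high and room temperature after Krueppel-like factor 6 (-0.37, limma adjusted p = 0.775).

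**Figure D3:**
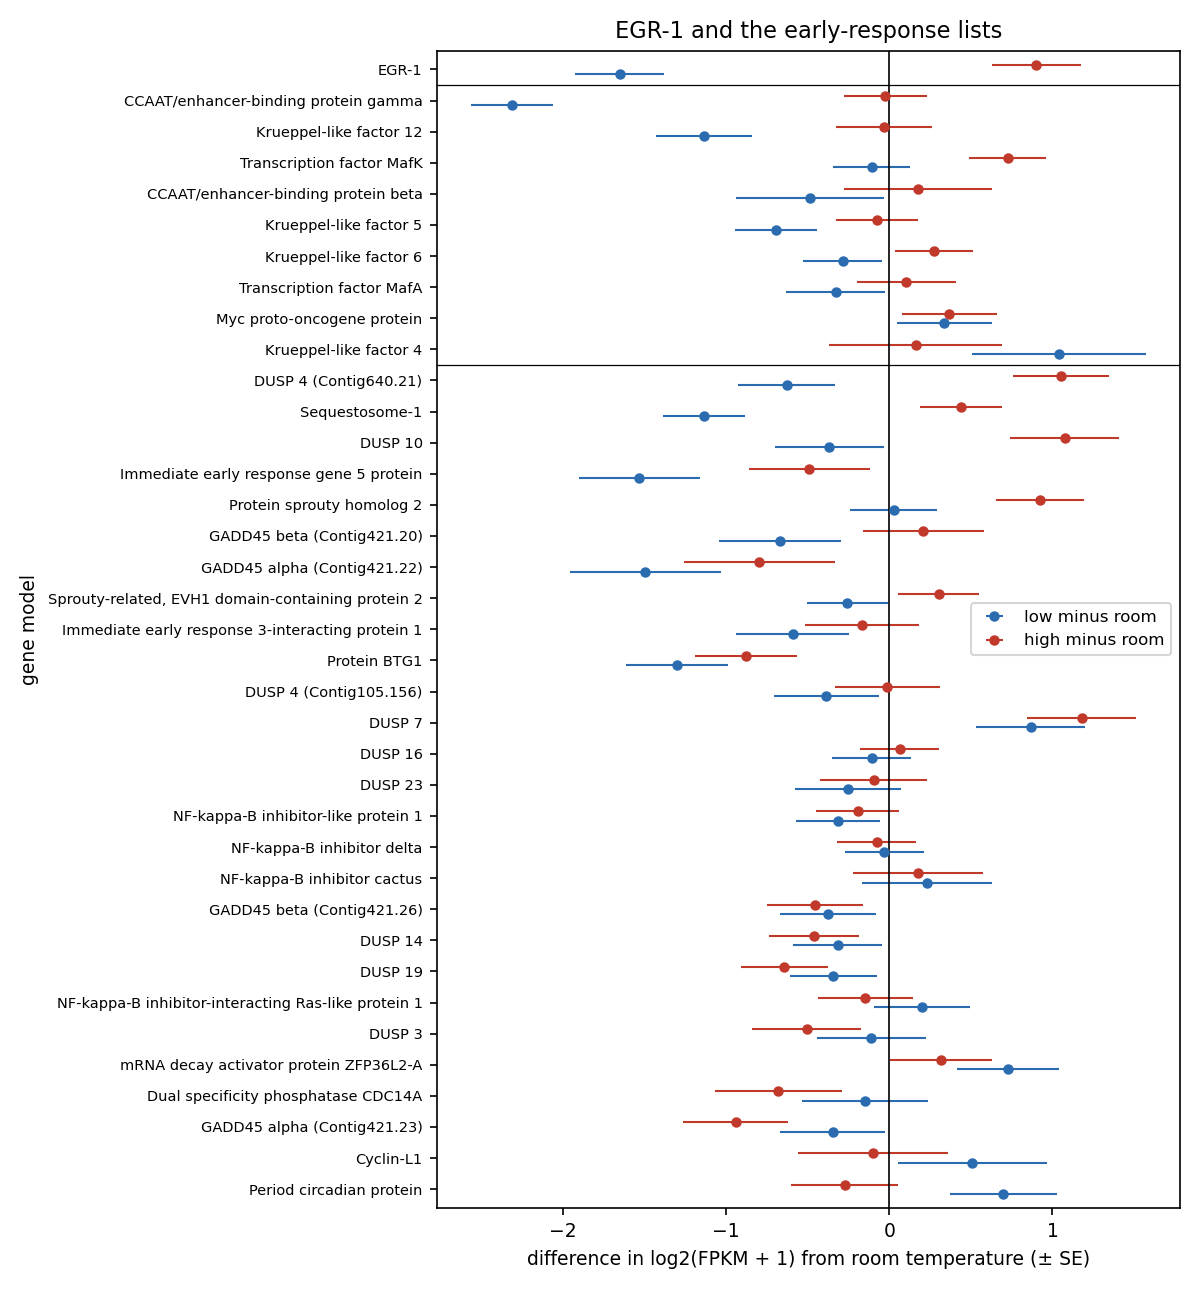
Differences in log2(FPKM + 1) from room temperature, with low minus room in blue and high minus room in red, ± limma SE. Rows are EGR-1 (top), 9 members of the early-response transcription factor list (middle block) and 27 of the feedback and RNA-decay list (lower block). Within both lower blocks rows are sorted by the high minus low difference. EGR-1 has a blue point at -1.65 and a red point at 0.90, while C/EBP gamma has its red point at -0.02 and DUSP7 has both points above 0.

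The list of feedback and RNA-decay proteins gave 1 call among 27 tested gene models, of 34 matched. The name pattern also took in proteins outside these classes, such as phosphatase CDC14A and the called one, the autophagy receptor sequestosome-1. Sequestosome-1 was called higher at high than at low temperature (log2 difference 1.58, SE 0.25, limma adjusted p = 0.0404), and it too was known to be called beforehand and is among the 12 gene models most like EGR-1. Its call was lost under 14 of 19 alternative settings, among them each setting that leaves out 1 library (adjusted p = 0.0612 to 0.187). At an unadjusted p under 0.05 7 of the 27 were higher at high temperature than at low and 1 was lower. Of all tested gene models, 6.42% were higher and 5.45% lower at that p, and 0.151% were called higher. Voom called 2 between high and low temperature and 0 in the other comparisons. Limma called 0 in those others, where 6 gene models (low against room) and 7 (high against room) had an unadjusted p under 0.05. The shares of all tested gene models at that p were 8.16% and 9.57%.

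Within that list, the MAP kinase phosphatases and Sprouty proteins did not move as a body. DUSP4 on Contig640 had a log2 difference of 1.68 between high and low temperature (SE 0.30, limma adjusted p = 0.0651, from 0.0123 to 0.233 over the alternatives), and it was called with array weights (adjusted p = 0.0123), with a pseudocount of 0.1 (0.049) and by voom (0.037). The other gene model of that name, evm.TU.Contig105.156, was at 1.70, 1.41 and 3.01 FPKM at low, 1.99, 2.81 and 4.09 at room and 2.27, 4.59 and 2.10 at high temperature, with all groups overlapping. DUSP7, a cytoplasmic phosphatase of ERK, was at 51.6, 52.1 and 67.1 FPKM at low, 37.6, 19.4 and 38.9 at room and 98.0, 64.0 and 55.6 at high temperature. Both shifted groups lay above room temperature, and the difference did not pass (high minus room 1.18, limma adjusted p = 0.352, low minus room 0.87, limma adjusted p = 0.519). The immediate early response gene 5 protein was at 55.0 ± 9.71 FPKM at low, 174 ± 85.7 at room and 114 ± 18.8 at high temperature (low minus room -1.53, limma adjusted p = 0.225).

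DUSP10 and Sprouty homolog 2 were picked once their values were known and do not belong to the genes named by rule. DUSP10, which inactivates p38 and JNK, was at 3.91, 4.33 and 4.26 FPKM at low, 5.63, 6.09 and 5.29 at room and 16.9, 19.05 and 6.69 at high temperature, in the full order of EGR-1 in deposited FPKM (high minus low 1.44, limma adjusted p = 0.142). Its step from room temperature to high temperature replicate 3 depends on how that library is scaled. Sprouty homolog 2, which holds back Ras signalling, was at 3.16, 3.21 and 4.96 FPKM at low, 3.90, 2.41 and 4.91 at room and 7.79, 8.58 and 6.998 at high temperature (high minus room 0.92, limma adjusted p = 0.357). Low and room temperature overlapped for Sprouty homolog 2, where EGR-1 had its larger step on the log2 scale.

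**Figure D4:**
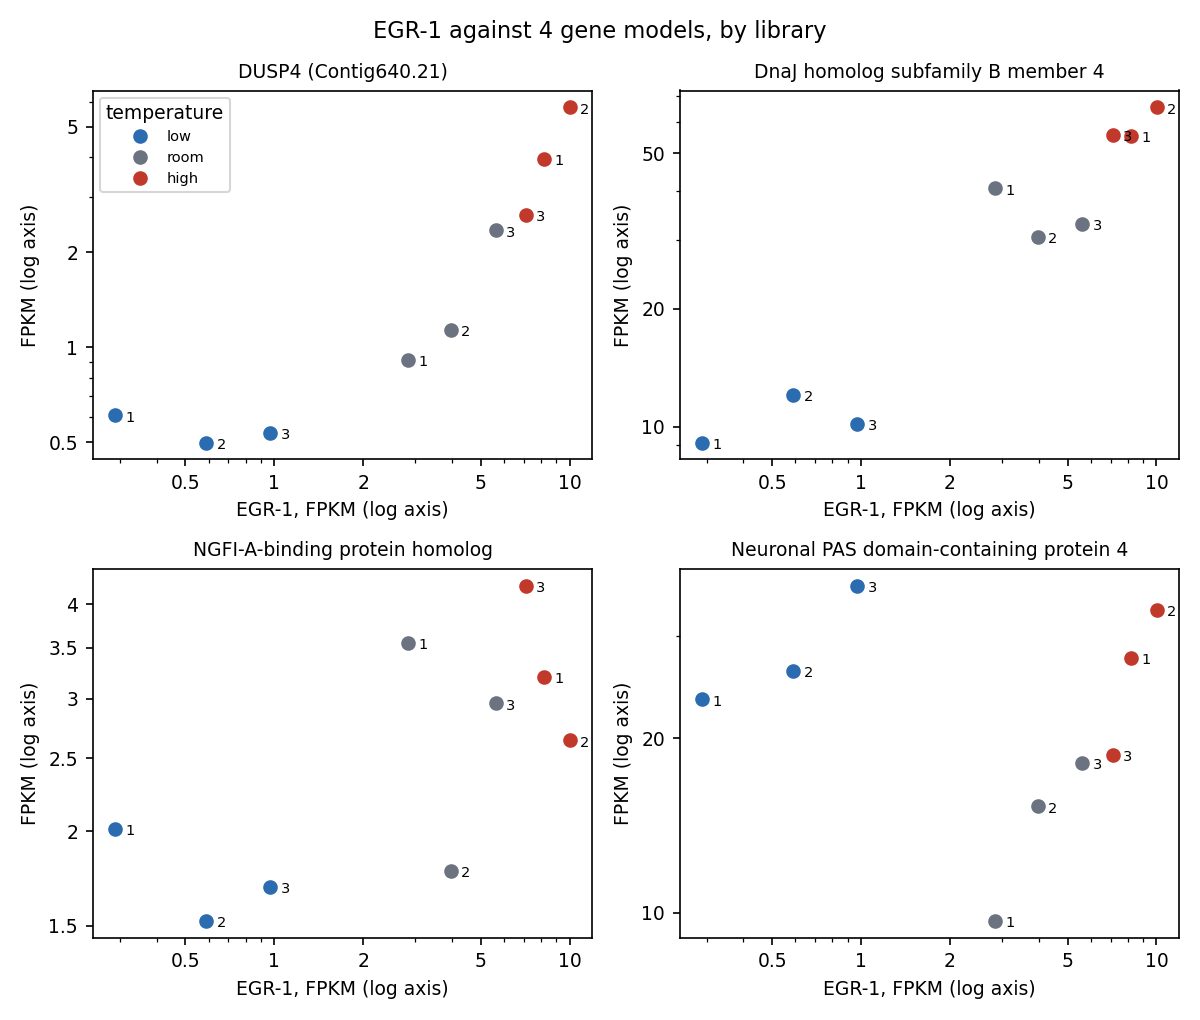
EGR-1 (horizontal axis) against DUSP4, DnaJ homolog subfamily B member 4, the NGFI-A-binding protein homolog and neuronal PAS domain-containing protein 4 (vertical axes) in the 9 libraries, in FPKM on log axes. Points are libraries coloured by temperature and numbered by replicate, and the last gene model was picked once its values were known. DUSP4 is flat over the low temperature libraries (0.50 to 0.61 FPKM) and follows EGR-1 over the other 6, while the NGFI-A-binding protein homolog stays between 1.52 and 4.23 FPKM.

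Proteins whose genes EGR-1 regulates in mammals were matched loosely by name, and 7 of 36 matches were abundant enough to be tested. They had a median log2 difference of -0.18 between high and low temperature, with 0 called by limma or voom. At an unadjusted p under 0.05, 2 of them were higher and 1 was lower, against 6.42% higher and 5.45% lower of all tested gene models. Growth/differentiation factor 15 (evm.TU.Contig121.73), by name a secreted stress factor of the TGF-beta family, fell at low temperature (log2 difference -3.37, SE 0.38, limma adjusted p = 0.00902), with 1150 reads over the room, 197 over the high and 3 over the low temperature libraries. This gene model was assigned no Pfam domain, so its name rests on the protein match alone. Its level was highest at room temperature, at 18.6, 4.92 and 9.51 FPKM, against 1.55, 2.11 and 3.10 at high temperature, so it did not follow the order of EGR-1. This call was lost under 5 of 18 alternatives: without low temperature replicate 1 (adjusted p = 0.0723), without replicate 3 (0.0748), with replicate 3 of high and of low temperature left out (0.0996), without a filter on low values (0.0675) and by voom (0.0781), with a range of 0.0011 to 0.0996 over the alternatives. The insulin-like growth factor 2 mRNA-binding protein 2, taken in by its name and not a growth factor, had -0.90 between high and low temperature (limma adjusted p = 0.294). The NGFI-A-binding protein homolog, described above, was also in this list. Between high and room temperature 0 were called by limma or voom, with 1 at an unadjusted p under 0.05 (9.57% of all tested gene models).

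Over the 7 lists together 81 gene models were tested, and 2, or 2.47%, were called between high and low temperature, 2 between low and room and 0 between high and room. The share over all gene models was 0.162%, 0.151% and 0%. These counts include gene models already known to be called when the lists were drawn up, so the excess is not evidence about the lists.

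Markers of other tissues were low beside those of muscle, and their part in the level of EGR-1 was not tested. The summed level of 69 blood cell markers (14 with a mean of at least 1 FPKM, 19 with 0 reads) was 178 to 550 FPKM at low, 196 to 537 at room and 274 to 567 at high temperature. The most abundant of them, a peptidoglycan recognition protein (evm.TU.Contig220.45), which binds bacterial cell walls, was at 76.4, 423 and 260 FPKM at low, 342, 98.2 and 206 at room and 209, 17.1 and 421 at high temperature, with all groups overlapping. Of the other 2 among the 3 most abundant, the allograft inflammatory factor 1 model evm.TU.Contig555.51, a marker of phagocytic blood cells in molluscs, was at 6.95, 10.9 and 3.21 FPKM at low, 15.02, 15.8 and 11.8 at room and 34.5, 17.6 and 12.504 at high temperature, and evm.TU.Contig1617.14 of the same name at 69.2, 85.3 and 99.3, 139, 53.1 and 116, and 177, 196 and 95.8 FPKM. Correlation with EGR-1 over the 9 libraries was r = -0.27 for the peptidoglycan recognition protein, 0.72 for evm.TU.Contig555.51 and 0.59 for evm.TU.Contig1617.14. Of these 3, evm.TU.Contig555.51 was lower in every low temperature library than in any other library. The 64 cilia markers (3 with a mean of at least 1 FPKM, 11 with 0 reads) summed to 10.8 to 18.9 FPKM at low, 15.8 to 26.1 at room and 14.5 to 25.4 at high temperature. The 58 digestive gland markers (5 and 13) summed to 40.3 to 49.1, 27.5 to 32.2 and 30.8 to 39.2 FPKM, the 14 gonad markers (3 and 3) to 8.77 to 16.8, 13.1 to 18.6 and 8.25 to 10.3, and the 25 nerve markers (6 and 1) to 28.7 to 32.9, 23.4 to 34.9 and 28.7 to 32.9, in the same order of groups. The digestive gland sum was thus higher in every low temperature library than in the others, opposite to EGR-1. Its 3 most abundant members, 2 inter-alpha-trypsin inhibitor heavy chain H3 models and neurotrypsin, were taken in by the word trypsin. The sum is therefore no measure of digestive gland tissue. Of these, evm.TU.Contig344.79 had means of 13.1 FPKM at low, 5.34 at room and 7.67 at high temperature. The gonad and nerve sums were likewise led by loose matches, a putative vitellogenin receptor and CUGBP Elav-like family member 1-A. The 16 adductor muscle markers summed to 62940 to 111507 FPKM at low, 82352 to 103598 at room and 64930 to 172185 at high temperature, with the highest sum in high temperature replicate 3. Such sums carry the scaling of the library. FPKM over all gene models summed to 1157870 in high temperature replicate 3, the highest, and to 492312 in low temperature replicate 1, the lowest. The marker sums are therefore no measure of tissue content between libraries.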

How the data were processed

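RNA of adductor muscle was sequenced in 9 libraries, grouped by the temperature in the labels. The deposited values are FPKM, per the file title. HISAT2 2.0.4 and HTSeq 0.9.1 are named in the submitters' processing notes; genome build, annotation and strand setting: not given in the sources used here. Multiplying FPKM by gene length gave whole multiples of 1 step per library (largest distance from a whole read 3.66e-08), and so the reads behind each value. limma 3.58.1 in R 4.3.3 was fitted to log2(FPKM + 1) of the 8624 gene models averaging 1 FPKM or more over the 9 libraries, with 1 mean per group, eBayes with trend, and Benjamini-Hochberg adjustment over all of them.

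EGR-1, the gene lists and the tests were chosen with earlier results of these data known. Named by rule were the 12 gene models most like EGR-1, the 5 most opposite, the 5 most alike within groups, the 2 neighbours on each side, the 3 most abundant muscle markers, and in each of 7 lists the called members and the 2 of lowest p in each comparison. Alternatives were another pseudocount, filters, scalings, fits and weights, voom on the recovered reads and leaving out libraries. Sequences are not analysed here. Figures used matplotlib 3.10.9.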

Additional observations from a re-analysis of the deposited data

How the results depend on the processing

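EGR-1 kept its order of group means under every alternative that gave a value; the minimum of 5 FPKM leaves it out. With a pseudocount of 0.1 its log2 difference was 3.68 for high minus low and -2.63 for low minus room, and by voom it was 4.03 and -2.95, so its size depends on the constant added to low values and on the fit. Leaving out 1 library gave 2.40 to 2.71, -1.85 to -1.45 and, for high minus room, 0.71 to 1.10.

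Counts of called gene models were less stable. Between high and low temperature, 14 became 89 with array weights, 4 without a filter and 1 without replicate 3 of both groups, and 6 to 19 without 1 library, with 6 when low temperature replicate 2 or 3 was left out. Between low and room, 13 became 31 with array weights, 8 with a minimum of 5 FPKM, with quantile normalization or by voom, 7 when scaled to total reads, 2 without replicate 3 of high and low temperature, 0 without a filter and 0 to 12 without 1 library, with 0 when low temperature replicate 1 or 3 was left out. Between high and room, 0 became 0 to 2 without 1 library.

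Of the list members, 2 were called between high and low temperature. This became 4 with array weights or a pseudocount of 0.1, 1 without a filter, with only the 2 groups compared, with the replicate block or when scaled to total reads, 0 without both doubted libraries and 1 to 2 without 1 library; voom called 3. Between low and room, 2 became 1 with a minimum of 5 FPKM, by voom or without both doubted libraries, 0 without a filter and 0 to 2 without 1 library. Of the 12 gene models most like EGR-1, 5 stayed among the 12 by Spearman's rho, when scaled to total reads or without both doubted libraries, and 5 to 9 without 1 library. Over 36 results on named list members, 639 of 666 settings left the result as it was, called or not, 23 lost a call and 4 gained one, with 0 reversals. Most of these results were not called in the main fit, so the total is no measure of how stable the calls were. All 23 losses fell on the called results. Sequestosome-1 lost its call under 14 of 19 settings and growth/differentiation factor 15 under 5 of 18. C/EBP gamma lost its call under 1 of 19 for high minus low and 3 of 19 for low minus room.

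Whether replicate numbers pair the libraries was not settled. Of 9 same-numbered pairs, 3 had a correlation of deviations over 0.1 (0.242, 0.186 and 0.152). The highest between groups for libraries of different number was 0.120, and the lowest same-numbered pair was at -0.103. Of 9 libraries, 5 correlated best with their own number. With the replicate block, 18 gene models were called between high and low temperature, 10 between low and room and 0 between high and room. Leaving out replicate 3 of high and low temperature together was an alternative added after seeing the data. The 19 to 37 reads per low temperature library limit the precision of EGR-1 there.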

Other observations

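Neuronal PAS domain-containing protein 4 (evm.TU.Contig131.32), an activity-dependent early-response transcription factor of mammalian neurons, was in none of the lists and was chosen after its values were seen. It was at 23.3, 26.1 and 36.6 FPKM at low, 9.68, 15.3 and 18.1 at room and 27.5, 33.3 and 18.7 at high temperature. In its deviations from the group means it followed EGR-1 with r = 0.937, the 8th highest of 8623 gene models, while over the 9 libraries r was -0.09. Within each group, the library with the highest EGR-1 was also the one with its highest level, and both temperature extremes lay above every room temperature library in deposited FPKM. High temperature replicate 3 did so by little (18.7 against 18.1), and its place depends on how that library is scaled. No test was made of this pattern.

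Protein BTG1 and the period circadian protein match are feedback list members also chosen after their values were seen. Protein BTG1, an anti-proliferative protein whose messenger is induced early in mammals, was at 33.6, 45.6 and 46.7 FPKM at low, 152, 107 and 68.0 at room and 53.3, 57.1 and 57.6 at high temperature. The period circadian protein match was at 19.0, 16.3 and 14.5 FPKM at low, 11.1, 12.5 and 6.71 at room and 10.4, 10.02 and 4.71 at high temperature, with every low temperature library above all others (high minus low -0.97, limma adjusted p = 0.285).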
